A study of Mus musculus with 18 samples.

Results

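The genes described here encode 10 proteins that neutrophils make late in their maturation: the alarmins S100a8 and S100a9 and the granule or secreted proteins Lcn2, Ltf, Ngp, Camp, Mmp8, Chil3, Fcnb and Pglyrp1. They were selected by name, with earlier results of these data known, and all 10 were found among the 25629 rows of each deposited table (Chil3 under its older name CHI3L3). All 10 had a mean level of at least 1 FPKM in both tables and entered every test. RNA had been sequenced from LSK cells (lineage-negative, c-Kit-positive, Sca-1-positive bone marrow cells, which hold the stem and early progenitor cells) of C57Bl/6 mice in 18 libraries, 3 in each of 6 groups. Irradiated mice had received 2.5 Gy from a caesium-137 source and had then recovered for at least 9 weeks, and control mice had received no dose. Of the 6 groups, 4 were cultured: irradiated with DL1, control with DL1, irradiated without DL1 and control without DL1, each library grown from 200 LSK cells of 1 mouse for 6 days with mouse SCF and human Flt3 ligand, IL-11 and IL-6, and sorted for LSK cells again. The other 2 groups, irradiated and control, were sequenced directly after the sort, each library pooled from 3 mice. The labels give no age and neither spell out DL1 nor give the form in which it was added.

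Neutrophils fill their granules in waves. The proteases of azurophil granules, such as myeloperoxidase and neutrophil elastase, are made first, in promyelocytes, and the proteins of specific and gelatinase granules follow in myelocytes and later cells, under the transcription factor C/EBP epsilon, which is needed for lactoferrin and other specific granule proteins. S100A8 and S100A9 form the calcium- and zinc-binding heterodimer calprotectin, which fills the cytosol of neutrophils and monocytes and acts as an alarmin, a damage signal read by Toll-like receptor 4, once it is released. LSK cells sit upstream of all these stages, and the sort removes cells that carry lineage antigens.

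The promoters of 5 of these genes are shown, and the 5 were picked by their changes in culture. S100a8 and S100a9 are neighbours on chromosome 3 with 0 protein-coding genes between them. Both were higher in irradiated cultures with DL1 than in control cultures without DL1. The difference for S100a8 did not pass the test in 5 of 6 fits that each left out 1 library. Ltf, Ngp and Chil3 had the largest log2 decreases with DL1 in the main fit. For Ltf, low in culture, the log2 fold change in control cells ranged from -3.46 to -0.90 over the other settings. A link between these sequences and the changes was not tested. Each sequence is from RefSeq on GRCm38.p6, in the direction of the gene, from 250 bases before to 50 bases after the annotated start. Capitals mark matches on either strand to TTNNGNAA, a consensus of C/EBP factors. The windows are chr3:90668821-90669120 on the plus strand (S100a8), chr3:90695672-90695971 on the minus strand (S100a9), chr9:111019042-111019341 on the plus strand (Ltf), chr9:110419558-110419857 on the plus strand (Ngp) and chr3:106167515-106167814 on the minus strand (Chil3).
S100a8: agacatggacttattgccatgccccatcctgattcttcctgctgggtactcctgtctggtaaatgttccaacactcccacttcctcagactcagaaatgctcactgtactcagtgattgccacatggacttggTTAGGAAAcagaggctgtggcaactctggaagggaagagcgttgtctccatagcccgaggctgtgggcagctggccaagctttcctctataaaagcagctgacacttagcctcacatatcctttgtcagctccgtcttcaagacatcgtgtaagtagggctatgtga
S100a9: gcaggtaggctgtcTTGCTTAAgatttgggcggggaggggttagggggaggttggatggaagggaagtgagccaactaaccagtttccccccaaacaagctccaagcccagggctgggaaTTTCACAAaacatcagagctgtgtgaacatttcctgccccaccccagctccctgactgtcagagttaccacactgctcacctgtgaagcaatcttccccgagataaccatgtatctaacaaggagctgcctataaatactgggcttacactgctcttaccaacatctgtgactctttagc
Ltf: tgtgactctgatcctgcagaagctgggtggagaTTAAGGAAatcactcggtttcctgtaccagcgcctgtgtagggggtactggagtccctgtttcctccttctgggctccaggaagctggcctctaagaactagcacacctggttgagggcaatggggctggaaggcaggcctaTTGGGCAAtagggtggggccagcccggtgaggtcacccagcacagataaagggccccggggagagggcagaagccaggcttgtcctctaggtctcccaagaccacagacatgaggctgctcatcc
Ngp: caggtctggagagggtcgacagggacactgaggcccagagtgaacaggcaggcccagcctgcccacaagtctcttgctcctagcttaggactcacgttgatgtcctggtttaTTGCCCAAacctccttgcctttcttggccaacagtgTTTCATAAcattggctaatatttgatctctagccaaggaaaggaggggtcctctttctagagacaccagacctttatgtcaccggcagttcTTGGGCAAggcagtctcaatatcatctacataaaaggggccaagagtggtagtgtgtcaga
Chil3: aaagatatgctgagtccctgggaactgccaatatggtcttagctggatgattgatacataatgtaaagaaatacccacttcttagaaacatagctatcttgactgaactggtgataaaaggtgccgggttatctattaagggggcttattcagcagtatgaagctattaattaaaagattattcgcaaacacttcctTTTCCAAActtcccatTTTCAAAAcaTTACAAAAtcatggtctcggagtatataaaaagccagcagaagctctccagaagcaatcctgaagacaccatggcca

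These letters were present in 8 of the 10 promoters (all but Camp and Pglyrp1), against 40.7% of the 32851 mouse promoters of the same length. Ngp and Chil3 held 3 matches each, S100a9, Ltf, Mmp8 and Fcnb 2 each, and S100a8 and Lcn2 1 each. The letters GAGGAA, the core bound by PU.1, searched on both strands, were present in 5 of the 10 (S100a8, Lcn2, Ltf, Mmp8 and Pglyrp1), against 28.3% of all promoters, and no match of one motif overlapped a match of the other in the 10 promoters. A match describes the sequence and is not a binding site.

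Levels are given in FPKM, read fragments relative to the length of the transcript and the size of the library, as deposited. The absolute depth is unknown. The depth relative to control replicate 1 of the same table, read from the spacing of the lowest values, was 0.756 to 1.09 in the cultured libraries except for irradiated replicate 2 with DL1, at 0.488, and 0.644 to 1 in the freshly sorted ones. Kit, which encodes the sorted receptor c-Kit, averaged 112 ± 8.38 FPKM in irradiated and 106 ± 10.2 FPKM in control fresh libraries, and between 34.3 and 39.0 FPKM in the 4 cultured groups. Ly6a, which encodes Sca-1, averaged between 149 and 166 FPKM in the fresh groups and between 496 and 596 FPKM in culture. The labels do not say whether cultures with the same number share a mouse. In bulk RNA, fewer cells of a type and less RNA per cell cannot be told apart.

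In freshly sorted cells none of the 10 genes passed the test between irradiated and control mice. S100a8 had 1002, 674 and 1452 FPKM in irradiated libraries, against 932, 1725 and 1517 FPKM in control libraries. S100a9 had 1069, 757 and 1623 FPKM in irradiated libraries, against 852, 1812 and 1548 FPKM in control libraries. Camp, the precursor of the antimicrobial peptide cathelicidin, had 123, 83.9 and 205 FPKM in irradiated libraries, against 94.6, 182 and 176 FPKM in control libraries. For each of the 10 genes the groups overlapped. With limma on log2(FPKM + 1) and p-values adjusted over all 12903 rows tested (threshold 0.05), 0 of 10 were called, where 0.101% of all rows were. At an unadjusted p under 0.05 the count was 1 of the 10 (Chil3), and 886 of all 12903 rows. Chil3 had 29.0 ± 1.81 FPKM in irradiated and 43.9 ± 13.4 FPKM in control libraries (SD, n = 3 each). Its log2 fold change was -0.54 ± 0.197 SE (adjusted p = 0.606). Estimates for the others were -0.44 for S100a8, -0.40 for Mmp8, -0.30 for Lcn2, -0.29 for S100a9, -0.21 for Ngp, -0.20 for Ltf, -0.17 for Camp, -0.02 for Pglyrp1 and 0.19 for Fcnb (adjusted p = 0.878 to 0.993). Point estimates lay below 0 for 9 of the 10 (median -0.25, against 0.01 over all rows), and the 95% intervals were wide: -1.13 to 0.25 for S100a8 and -0.94 to 0.60 for Camp.

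**Figure D1:**
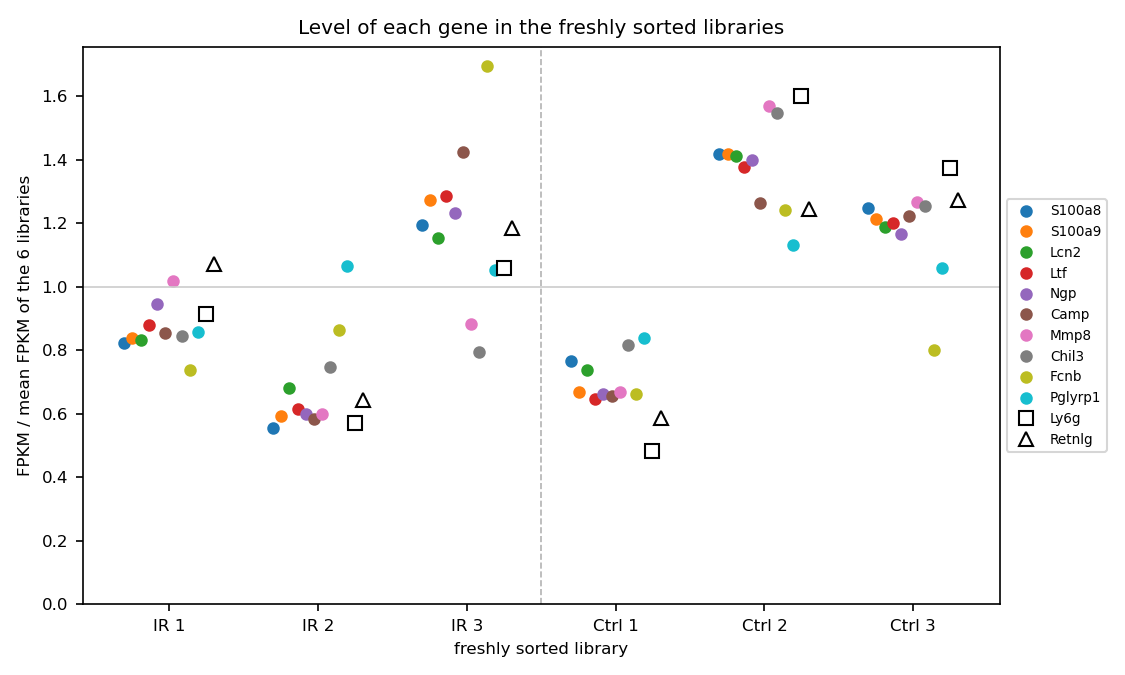
Level of each of the 10 genes, and of Ly6g and Retnlg (open symbols), in the 6 freshly sorted libraries, divided by the gene's mean over the 6; irradiated (IR) libraries stand left of the dashed line and control (Ctrl) libraries right of it. Most genes are low together in irradiated 2 and control 1 and high together in control 2, and the ranges of both groups overlap for every gene plotted.

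For most of the 10 genes the fresh libraries differed more within than between the groups, as the plot of relative levels shows. Chil3 was an exception, with group means of 29.0 (irradiated) and 43.9 FPKM (control) and SDs of 1.81 and 13.4 FPKM. Of the 10 genes, 8 had their lowest value in irradiated library 2 and 8 their highest in control library 2. The highest library exceeded the lowest 2.56-fold for S100a8 and 2.45-fold for Camp, but only 1.35-fold for Pglyrp1, which encodes a bactericidal peptidoglycan-binding protein. Transcripts of maturing neutrophils outside the 10 varied too, Ly6g, Retnlg, Cxcr2 and Elane being named here after their values were seen. Ly6g, the surface antigen of mouse neutrophils, had 8.22, 5.12 and 9.52 FPKM in irradiated libraries, against 4.35, 14.4 and 12.4 FPKM in control libraries. Retnlg, a resistin-like gene of neutrophils, had 96.6, 57.9 and 107 FPKM in irradiated libraries, against 53.0, 112 and 115 FPKM in control libraries. Both were lowest in control library 1, with irradiated library 2 next. Cxcr2 had 14.95, 15.05 and 11.8 FPKM in irradiated libraries, against 12.2, 13.2 and 12.8 FPKM in control libraries, and was highest in irradiated library 2. Elane, neutrophil elastase, had 83.4, 101 and 82.2 FPKM in irradiated libraries, against 52.9, 93.9 and 47.1 FPKM in control libraries, and was also highest in irradiated library 2. Of the other neutrophil genes, those with the smallest p were Stfa2l1 (0.84 ± 0.276, adjusted p = 0.544) and Chil4 (-0.40 ± 0.191, 0.782). Their part in the spread was not tested.

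**Figure D2:**
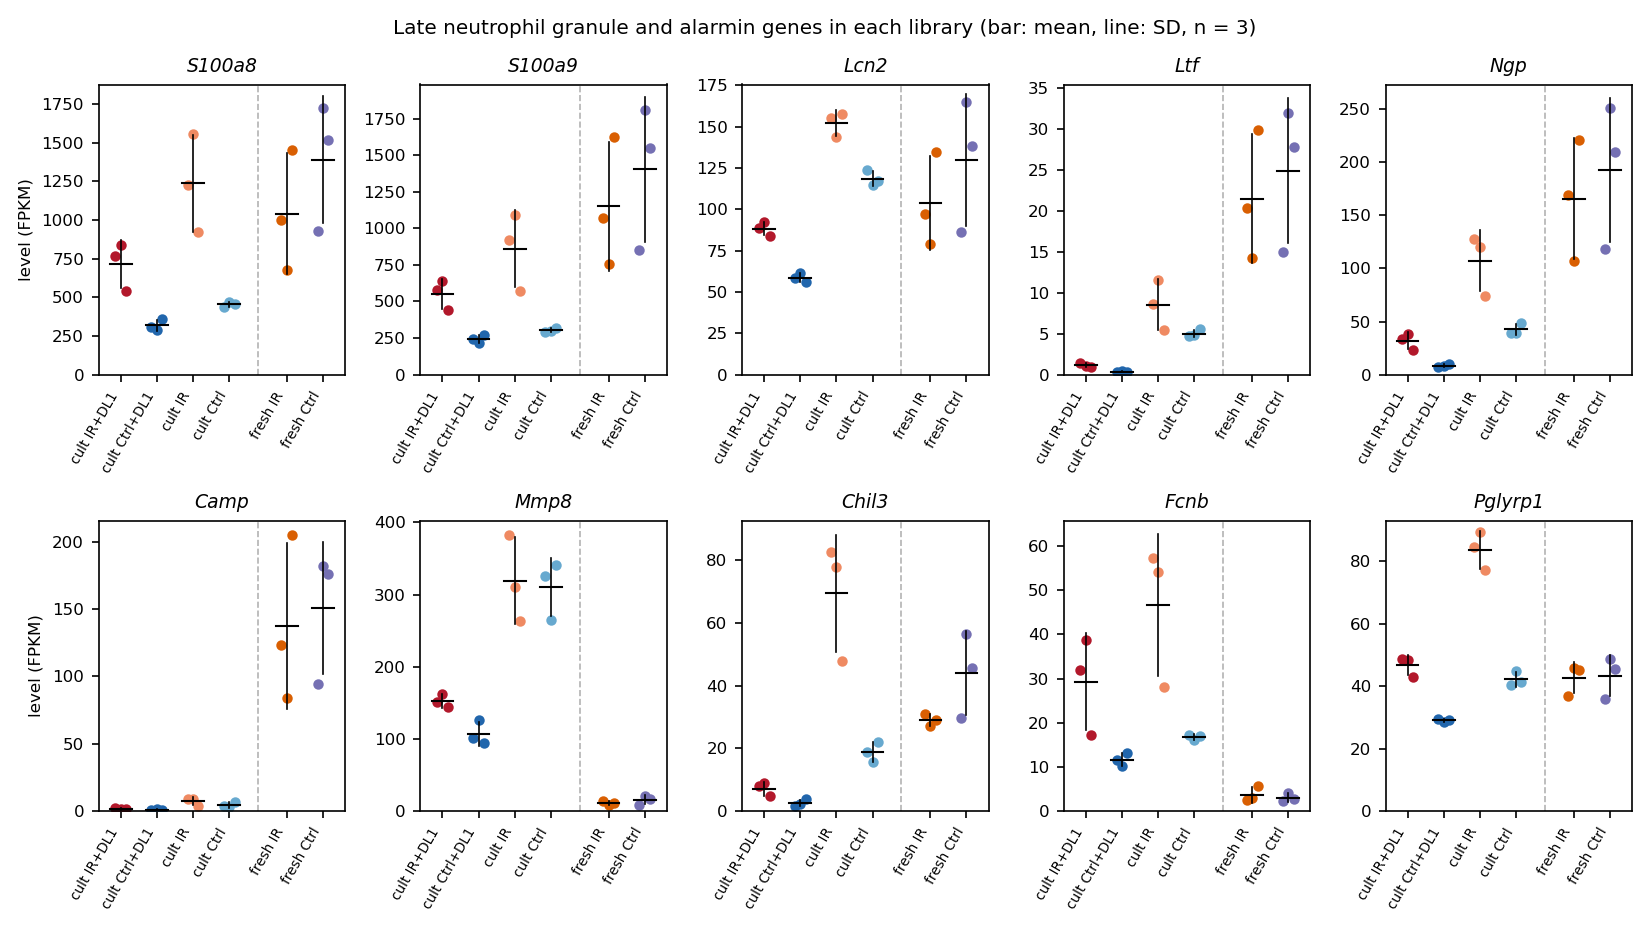
FPKM of each gene in every library (points), with the group mean (bar) and SD (line, n = 3), for irradiated (IR) and control (Ctrl) cells with and without DL1 in culture (cult) and for freshly sorted cells right of the dashed line; scales start at 0 and differ between panels. Camp, Ltf and Ngp stand highest in fresh cells, Mmp8 and Fcnb in culture, and in each cultured pair irradiated libraries average above their controls.

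The mixture of the 10 transcripts was not the same in cultured and in fresh cells. The 2 tables were normalized separately, so their levels are set side by side without a test. By rank among the 25629 rows, Camp stood at 9353 in cultured and 489 in fresh control cells. Ngp, a cystatin-related granule protein, stood at 2425 in cultured and 394 in fresh control cells, and Ltf, the iron-binding lactoferrin, at 9157 in cultured and 3298 in fresh ones. The order was the other way for Mmp8, neutrophil collagenase, at 272 in cultured and 5054 in fresh control cells, and for Fcnb, the lectin ficolin B, at 5312 in cultured and 10805 in fresh ones. In cultured control cells Mmp8 (311 ± 40.3 FPKM) stood between S100a8 (455 ± 17.5 FPKM) and S100a9 (304 ± 15.5 FPKM), and its distance from S100a9 was smaller than its own SD. In fresh control cells S100a9 and S100a8 led the 10 (ranks 54 and 56). The ratio of S100a8 to S100a9 was 1.22 to 1.62 in the cultured libraries and 0.891 to 1.09 in the fresh ones. Ly6g stayed at or below 1.02 FPKM and Retnlg at or below 0.569 FPKM in all 12 cultured libraries, and Retnlg was listed at 0 in the 3 control libraries with DL1.

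After 6 days without DL1, cultures of irradiated LSK cells held more of most of these transcripts than cultures of control cells. The alarmin S100a8 had 1229.8, 1557 and 924 FPKM in irradiated cultures, against 437, 471 and 458 FPKM in control cultures, and the lowest irradiated value was well above the highest control value. S100a9 had 924, 1091 and 571 FPKM in irradiated cultures, against 290.3, 300.1 and 321 FPKM in control cultures. Chil3, a chitinase-like lectin also called Ym1, had 82.4, 77.8 and 47.9 FPKM in irradiated cultures, against 18.7, 15.8 and 22.0 FPKM in control cultures, the largest fold of the 10. Pglyrp1 had 84.5, 89.3 and 77.1 FPKM in irradiated cultures, against 40.4, 44.8 and 41.3 FPKM in control cultures. The groups were apart for 7 of the 10 (all but Ltf, Camp and Mmp8), as they were, in that direction, for 17.5% of all rows. Of the summed FPKM of a library, 0.378% to 0.614% fell on the 10 genes in irradiated cultures and 0.227% to 0.242% in control cultures.

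Of the 10, 8 rose and 0 fell (limma, adjusted over 12025 rows), where 13.8% of all rows rose, and the median log2 fold change was 1.13, against -0.03 over all rows. Chil3 rose by 1.80 ± 0.261 (log2 fold change ± SE, adjusted p = 0.0008), S100a9 by 1.45 ± 0.199 (0.000624), S100a8 by 1.41 ± 0.18 (0.000426), Fcnb by 1.35 ± 0.277 (0.00463), Ngp by 1.28 ± 0.206 (0.00137) and Pglyrp1 by 0.97 ± 0.0639 (9.16e-06). Lcn2, the siderophore-binding lipocalin, rose less, by 0.36 ± 0.0549 (adjusted p = 0.00107), at 152 ± 7.64 FPKM in irradiated and 119 ± 4.74 FPKM in control cultures. Ltf rose by 0.62 ± 0.184 (adjusted p = 0.0263), with 8.62, 11.6 and 5.39 FPKM in irradiated and 4.66, 4.82 and 5.53 FPKM in control cultures, which overlapped. That call was lost without control replicate 1 (adjusted p = 0.0781) or 2 (0.0802), without irradiated replicate 1 (0.0801) or 2 (0.0912), without a filter on low rows (0.0614) and in a fit of only the 6 libraries compared (0.0856).

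Camp and Mmp8 did not pass. Camp had 9.33, 8.94 and 4.06 FPKM in irradiated cultures, against 3.88, 2.99 and 6.89 FPKM in control cultures, which overlapped (0.59 ± 0.289, adjusted p = 0.146). It passed without control replicate 3 (0.87, adjusted p = 0.0423) or without irradiated replicate 3 (0.92, adjusted p = 0.0139). Mmp8 had 383, 310.0 and 264 FPKM in irradiated cultures, against 326, 265 and 341 FPKM in control cultures. Its log2 fold change was 0.03 with a 95% interval of -0.27 to 0.33. Its sign turned without control replicate 2 (-0.08) or irradiated replicate 1 (-0.11). Whether the change of Mmp8 differed from those of the 8 genes that rose was not tested. Irradiated replicate 3 held the lowest irradiated value for 9 of the 10 genes.

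With DL1 in the culture the irradiated cells again held more. S100a8 had 766, 841 and 541 FPKM in irradiated cultures with DL1, against 311, 289.5 and 357 FPKM in control cultures with DL1. Ngp had 34.0, 38.6 and 23.5 FPKM in irradiated cultures with DL1, against 7.43, 8.16 and 9.77 FPKM in control cultures with DL1, the largest fold of the 10 here. Lcn2 had 88.7, 92.1 and 84.1 FPKM in irradiated cultures with DL1, against 58.3, 61.6 and 55.9 FPKM in control cultures with DL1. For all 10 genes the 3 irradiated values lay above the 3 control values, as they did for 15.6% of all rows.

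Of the 10, 7 rose and 0 fell, where 2.50% of all rows rose (median 0.90, against -0.02 over all rows). Ngp rose by 1.78 ± 0.206 (adjusted p = 0.00245), S100a9 by 1.17 ± 0.199 (0.00954), S100a8 by 1.14 ± 0.18 (0.00761), Pglyrp1 by 0.66 ± 0.0639 (0.000882) and Lcn2 by 0.58 ± 0.0549 (0.000882). Chil3 (1.2 ± 0.261, adjusted p = 0.0314) and Fcnb (1.19 ± 0.277, adjusted p = 0.0386) passed by less. Mmp8 (0.52 ± 0.139, adjusted p = 0.0697), Ltf (0.64 ± 0.184, 0.0878) and Camp (0.42 ± 0.289, 0.454) did not pass. Ltf averaged 1.14 ± 0.225 FPKM in irradiated and 0.366 ± 0.0569 FPKM in control cultures with DL1, levels at which the added 1 FPKM understates a fold, and with 0.1 added it passed (1.4, adjusted p = 0.00742).

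Several of these calls were lost when 1 library was left out. Without irradiated replicate 2 with DL1, the library with the least depth, only 4 of the 10 were called, with S100a9 at an adjusted p of 0.0577, Chil3 at 0.138 and Fcnb at 0.169. Chil3 and Fcnb were also lost without control replicate 1 with DL1 (0.142 and 0.138), control replicate 2 with DL1 (0.0782 and 0.107) or irradiated replicate 1 with DL1 (0.108 and 0.131), and Fcnb without control replicate 3 with DL1 (0.0977). Both were lost with a pseudocount of 5 (0.086 and 0.0559) and with no filter on low rows (0.086 and 0.106), and Chil3 with the replicate number as a block (0.0547). Mmp8 passed without control replicate 2 with DL1 (0.64, adjusted p = 0.045) and in a fit of only the groups compared (0.52, adjusted p = 0.0244). Irradiated replicate 3 with DL1 held the lowest irradiated value for all 10 genes.

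**Figure D3:**
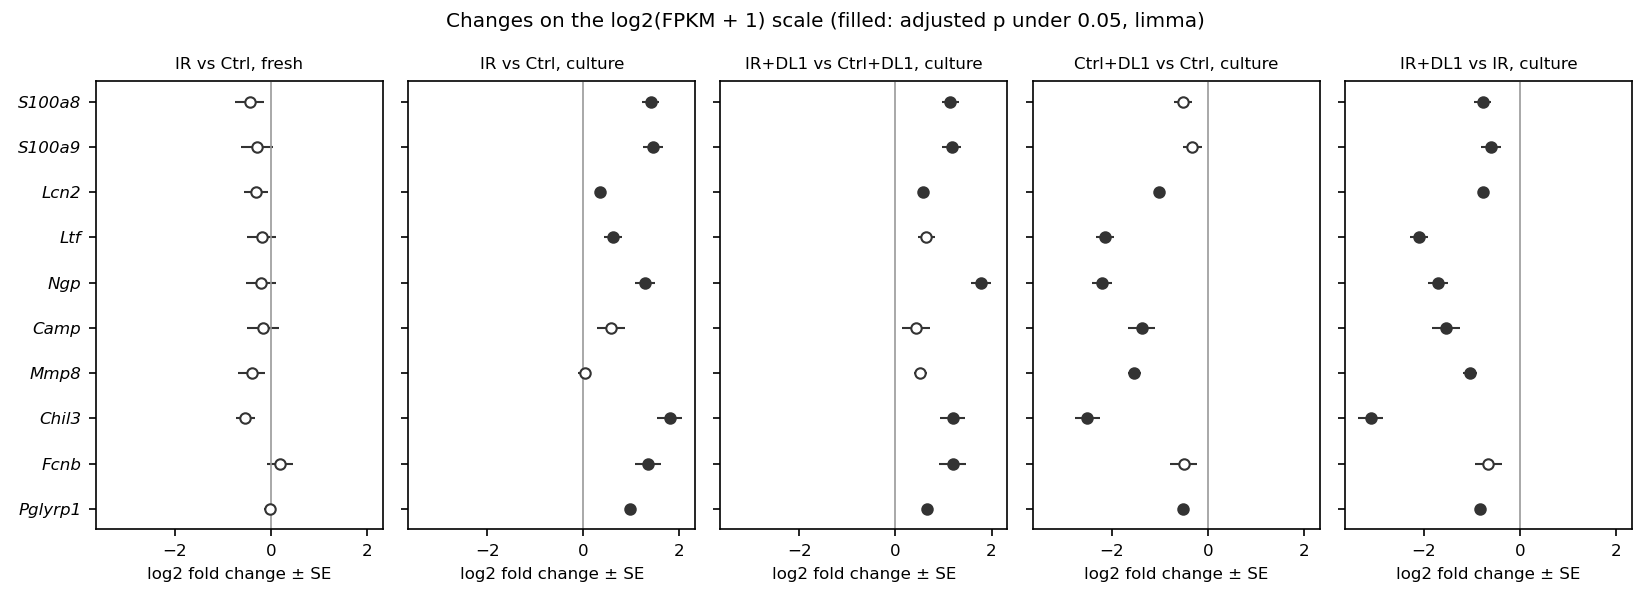
Log2 fold change with its SE (lines) of the 10 genes in 5 comparisons, on the log2(FPKM + 1) scale; IR is irradiated, Ctrl is control, and filled points have an adjusted p under 0.05. All points of both cultured irradiation comparisons lie right of 0 and all points of both DL1 comparisons left of it, with Mmp8 at 0.03 in cultures without DL1.

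Cultures of control cells with DL1 held less of all 10 transcripts than control cultures without it, by very different amounts. Ltf had 0.307, 0.421 and 0.368 FPKM in control cultures with DL1, against 4.66, 4.82 and 5.53 FPKM in control cultures, 13.7-fold lower by the ratio of the means. Chil3 had 1.59, 2.37 and 3.75 FPKM in control cultures with DL1, against 18.7, 15.8 and 22.0 FPKM in control cultures, 7.34-fold lower. Ngp had 7.43, 8.16 and 9.77 FPKM in control cultures with DL1, against 39.5, 39.2 and 48.9 FPKM in control cultures, 5.03-fold lower. S100a9 stood at the other end, with 245, 213 and 273 FPKM in control cultures with DL1, against 290.3, 300.1 and 321 FPKM in control cultures, 1.25-fold lower by the ratio of the means. The groups were apart for all 10 genes, as they were, in that direction, for 18.9% of all rows.

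Of the 10, 7 fell and 0 rose, where 12.3% of all rows fell (median -1.19, against 0.04 over all rows). On the log2 scale Chil3 fell by 2.51 ± 0.261 (adjusted p = 2.64e-05), Ngp by 2.20 ± 0.206 (1.28e-05), Ltf by 2.13 ± 0.184 (7.28e-06), Mmp8 by 1.53 ± 0.139 (1.01e-05), Camp by 1.38 ± 0.289 (0.00385), Lcn2 by 1.01 ± 0.0549 (5.31e-07) and Pglyrp1 by 0.52 ± 0.0639 (8.46e-05). S100a8 (-0.52 ± 0.18, adjusted p = 0.0523), Fcnb (-0.50 ± 0.277, 0.212) and S100a9 (-0.32 ± 0.199, 0.262) did not pass. S100a8 passed with median-ratio scaling (0.0468) and with the replicate number as a block (0.0453), and all 10 passed in a fit of only the 6 libraries compared. Mmp8, at 107 ± 16.7 FPKM in control cultures with DL1 and 311 ± 40.3 FPKM in control cultures, fell with DL1, whereas it did not pass after irradiation without DL1.

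In irradiated cells those 7 genes and both alarmins fell with DL1. Chil3 had 7.98, 8.81 and 4.66 FPKM in irradiated cultures with DL1, against 82.4, 77.8 and 47.9 FPKM in irradiated cultures, 9.70-fold lower by the ratio of the means. Ltf was 7.49-fold lower, Camp 4.07-fold, Ngp 3.35-fold, Mmp8 2.09-fold and S100a9 1.56-fold. Of the 10, 9 fell and 0 rose, where 17.0% of all rows fell (median -0.94, against 0.06 over all rows). The log2 fold changes of the 9 were -3.11 ± 0.261 for Chil3 (adjusted p = 3.34e-06), -2.11 ± 0.184 for Ltf (4.42e-06), -1.70 ± 0.206 for Ngp (5.18e-05), -1.54 ± 0.289 for Camp (0.00127), -1.04 ± 0.139 for Mmp8 (0.000106), -0.83 ± 0.0639 for Pglyrp1 (1.91e-06), -0.78 ± 0.18 for S100a8 (0.00464), -0.78 ± 0.0549 for Lcn2 (1.06e-06) and -0.60 ± 0.199 for S100a9 (0.0297). The call on S100a9 was lost without irradiated replicate 1 (0.0955) or 2 (0.125) and without irradiated replicate 1 (0.0521) or 3 (0.12) with DL1, without a filter on low rows (0.0649) and in a fit of only the 6 libraries compared (0.0841). The groups were apart for 8 of the 10 (all but S100a9 and Fcnb), as they were, in that direction, for 19.7% of all rows. Fcnb had 31.8, 38.8 and 17.2 FPKM in irradiated cultures with DL1, against 57.4, 54.2 and 28.1 FPKM in irradiated cultures, and did not pass (-0.66 ± 0.277, adjusted p = 0.0751). It passed without irradiated replicate 3 (0.00606) or without irradiated replicate 2 with DL1 (0.0313). Same-numbered libraries of these 2 groups deviated together, and for Fcnb and for S100a9 the library with DL1 was the lower one in each of the 3 pairs. With the replicate number as a block in a fit of only these 6 libraries, a fit added after the data were seen, all 10 fell (Fcnb adjusted p = 0.00071, S100a9 0.00168).

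Set against control cultures without DL1, irradiated cultures with DL1 held more of some of the 10 transcripts and less of others. The alarmins were higher: S100a9 averaged 554 ± 103 FPKM in irradiated cultures with DL1 and 304 ± 15.5 FPKM in control cultures (0.85 ± 0.199, adjusted p = 0.0098), and S100a8 716 ± 156 and 455 ± 17.5 FPKM (0.63 ± 0.18, 0.027). In the other direction Ltf fell by 1.49 ± 0.184 (0.000146), Chil3 by 1.31 ± 0.261 (0.0036), Mmp8 by 1.01 ± 0.139 (0.000297), Camp by 0.95 ± 0.289 (0.0348) and Lcn2 by 0.42 ± 0.0549 (0.000213). So 2 of 10 rose and 5 fell, where 11.3% of all rows rose and 9.41% fell. Fcnb (0.69 ± 0.277, adjusted p = 0.0996), Pglyrp1 (0.14 ± 0.0639, 0.138) and Ngp (-0.42 ± 0.206, 0.175) did not pass. The call on S100a8 was lost without control replicate 1, 2 or 3 (adjusted p = 0.0883, 0.0574 and 0.0565) or irradiated replicate 1 or 2 with DL1 (0.0914 and 0.108). The call on Camp was lost without control replicate 1 or 3 (0.0717 and 0.118) or irradiated replicate 2 or 3 with DL1 (0.0953 and 0.12). Without a filter on low rows both calls were lost (0.0621 for S100a8 and 0.0757 for Camp), and that on Camp also with a pseudocount of 5 (0.0672). Fcnb passed without irradiated replicate 3 with DL1 (1.02, adjusted p = 0.0128).

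The change after irradiation was not shown to differ between cultures with and without DL1 for any of the 10. In the test of that difference 0 of 10 were called, where 0.0748% of all rows were. At an unadjusted p under 0.05 stood 3 of the 10, and 1256 of all 12025 rows. These were Pglyrp1 (difference of the log2 fold changes -0.31, 95% interval -0.50 to -0.11, adjusted p = 0.259), Lcn2 (0.23, 0.06 to 0.40, 0.339) and Mmp8 (0.49, 0.06 to 0.92, 0.414). The intervals of the other 7 all included 0: -1.41 to 0.20 for Chil3, -0.89 to 0.33 for S100a9, -0.82 to 0.29 for S100a8, -1.05 to 0.73 for Camp, -1.01 to 0.69 for Fcnb, -0.54 to 0.59 for Ltf and -0.14 to 1.13 for Ngp.

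Other genes of the neutrophil series were taken from lists chosen by name. Genes called measured had a mean of at least 1 FPKM over the cultured libraries. These were 8 of 9 listed azurophil genes, 17 of 27 other neutrophil genes, 10 of 12 regulators, 10 of 14 receptors and 5 of 7 surface genes. Over all rows, 13.8% rose after irradiation without DL1 and 2.50% with DL1, and 12.3% fell with DL1 in control and 17.0% in irradiated cultures. Of 8 measured azurophil granule genes, 7 rose after irradiation in culture without DL1, among them Elane at 1234 ± 218 FPKM in irradiated and 509.7 ± 33.6 FPKM in control cultures (1.26 ± 0.142, adjusted p = 0.00022). With DL1, 6 of the 8 rose after irradiation (Elane by 1.05, adjusted p = 0.0045), and 6 fell in control and 7 in irradiated cultures with DL1 against those without. Of 17 other measured neutrophil genes, 9 rose after irradiation without DL1, including Padi4, the enzyme that citrullinates histones (1.32 ± 0.173, adjusted p = 0.000493), Anxa1 (0.60 ± 0.0856, 0.000708), Hdc, histidine decarboxylase (0.90 ± 0.0785, 8.68e-05), and Chil4, listed as CHI3L4 (1.49 ± 0.157, 0.000149). Chil4 is a close paralog of Chil3 and stood at 7.43% to 15.4% of its level in culture, so reads may be shared between both. With DL1, 8 of these 17 rose after irradiation, Lrg1 among them (0.93 ± 0.148, adjusted p = 0.00761). The 8 became 3 with no filter on low rows, 3 without control replicate 1 with DL1 and 2 without control replicate 3 with DL1. They became 4, 2 and 5 when irradiated replicate 1, 2 or 3 with DL1 was left out in turn.

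These other neutrophil genes moved in both directions with DL1, as did the rows as a whole. Of all 12025 rows, 1675 rose and 1479 fell with DL1 in control cells, and 2931 rose and 2043 fell in irradiated cells. In control cultures 11 of the 17 fell with DL1, led by Lrg1, at 5.12 ± 0.734 FPKM in control cultures with DL1 and 32.0 ± 4.4 FPKM in control cultures (-2.43 ± 0.148, adjusted p = 7.72e-07), lysozyme 2 (Lyz2, -2.27 ± 0.184, 4.97e-06), Padi4 (-2.07 ± 0.173, 5.9e-06) and Slpi, an inhibitor of neutrophil elastase (-2.02 ± 0.174, 7.23e-06). The other 4 that passed rose: the cystatin genes Stfa1 and BC100530, Hdc and the chemokine receptor gene Cxcr2. These 4 were singled out after their values were seen, and Cxcr2 and Hdc also stand in other lists. Cxcr2 had 12.9, 12.4 and 12.6 FPKM in irradiated cultures with DL1, 12.03, 13.9 and 13.5 FPKM in control cultures with DL1, 6.81, 8.37 and 6.32 FPKM in irradiated cultures and 9.31, 8.52 and 7.97 FPKM in control cultures. It rose with DL1 by 0.75 ± 0.0885 in irradiated cells (adjusted p = 4.19e-05) and by 0.56 ± 0.0885 in control cells (0.000547). Stfa1 rose with DL1 by 1.09 ± 0.113 in irradiated cells (1.57e-05) and by 0.67 ± 0.113 in control cells (0.000876), and as a member of a family of near-identical cystatins its reads may be shared. In irradiated cells 11 of the 17 fell with DL1 and 3 rose (Stfa1, BC100530 and Cxcr2).

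**Figure D4:**
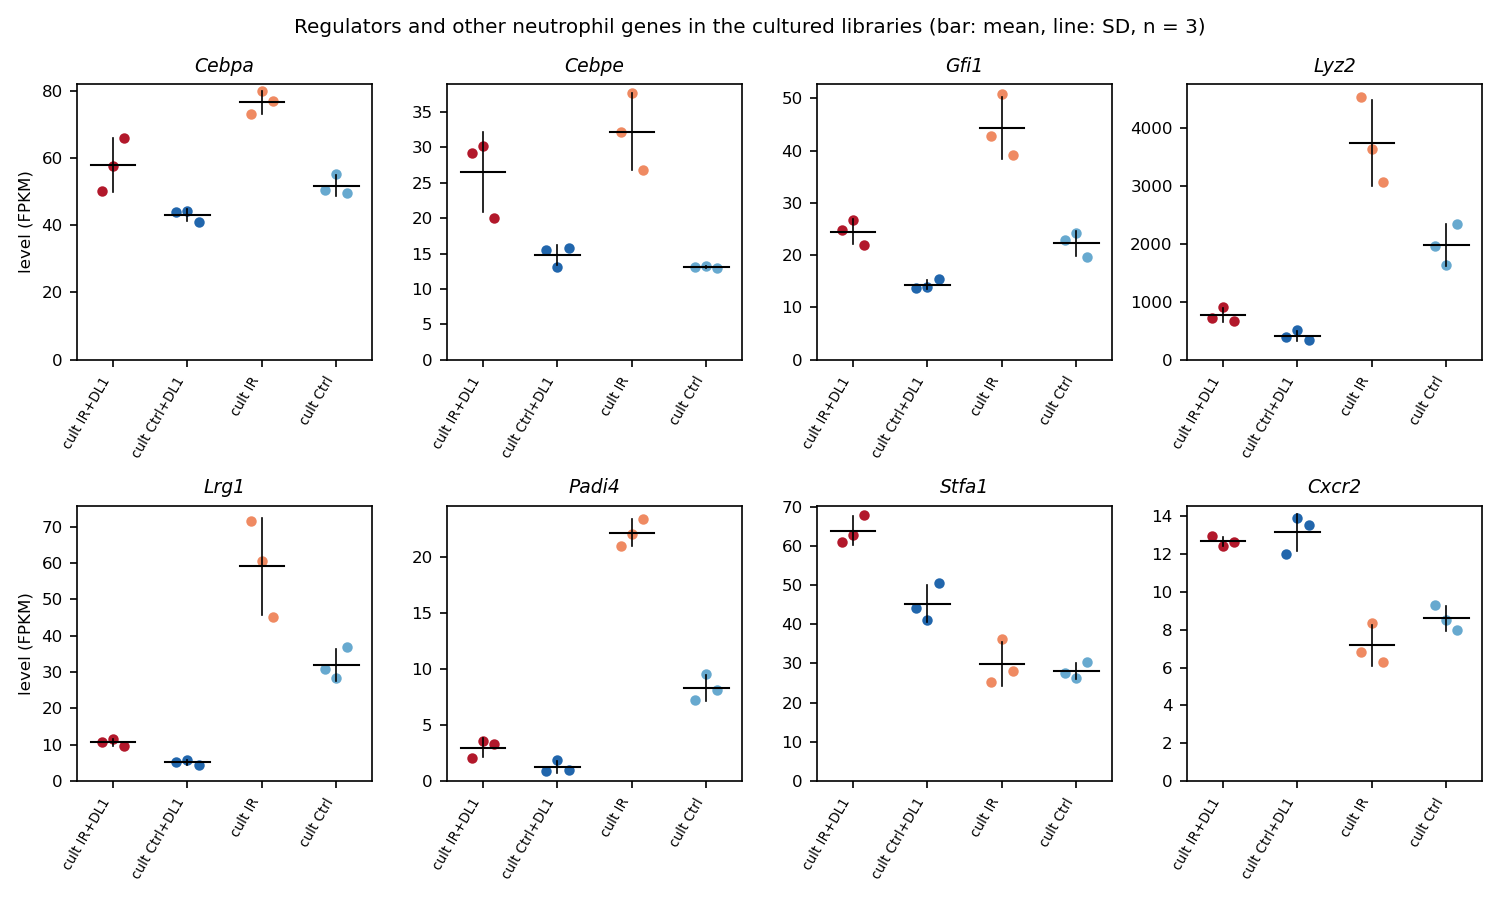
FPKM in the 12 cultured libraries (points) with group mean (bar) and SD (line, n = 3) for 3 regulators (Cebpa, Cebpe, Gfi1) and 5 other neutrophil genes; groups are irradiated (IR) and control (Ctrl) cultures (cult) with and without DL1, and scales start at 0. Cebpe is high in both irradiated groups, Lyz2, Lrg1 and Padi4 are low in both groups with DL1, and Stfa1 and Cxcr2 are high in both.

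Among 10 measured regulators of granule genes, 5 rose after irradiation in culture without DL1. Cebpe, which encodes C/EBP epsilon, had 32.2, 37.7 and 26.7 FPKM in irradiated cultures, against 13.1, 13.3 and 12.96 FPKM in control cultures (1.22 ± 0.144, adjusted p = 0.000285). Gfi1, a repressor needed for neutrophil maturation, rose by 0.96 ± 0.102 (0.000151), Cebpa, needed for granulocyte progenitors, by 0.56 ± 0.0832 (0.000906) and Cux1 by 0.26 ± 0.0446 (0.00204). With DL1, 4 of the 10 rose after irradiation, including Cebpe (0.78 ± 0.144, adjusted p = 0.0146), a call lost without irradiated replicate 1 (0.0628) or 2 (0.0779) with DL1. The 4 became 1 without irradiated replicate 2 with DL1, and 2 without control replicate 1 or 3 with DL1 or with no filter on low rows. With DL1, 5 of the 10 fell in control cells (3 with no filter on low rows or without any 1 library compared, except without control replicate 3, where 4 fell and 1 rose), among them Gfi1 (-0.60 ± 0.102, 0.000876) and Cebpd (-0.51 ± 0.0932, 0.0016), and 5 in irradiated cells, where 1 rose (the PU.1 gene Sfpi1, 0.20 ± 0.0614, 0.0239, named after its value was seen, and not called with median-ratio scaling, in a fit of only the groups compared, without irradiated replicate 2 or without irradiated replicate 1 or 2 with DL1). Cebpe, singled out after its values were seen, did not pass in either. It had 15.5, 13.1 and 15.7 FPKM in control cultures with DL1 (0.16 ± 0.144, adjusted p = 0.455). Against irradiated cultures without DL1 its change was -0.28 ± 0.144 (adjusted p = 0.138), and it passed without irradiated replicate 3 (0.0385) and in the fit of only these 6 libraries with the replicate block (0.0168).

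Of 10 measured receptors and partners of these proteins, 4 rose after irradiation without DL1, among them Cd14 (0.61 ± 0.141, adjusted p = 0.00846), a co-receptor of Toll-like receptor 4. The 4 became 2 without control replicate 2, without irradiated replicate 1 (where 1 fell), with no filter on low rows or in a fit of only the groups compared. With DL1, 0 rose after irradiation (3 rose and 1 fell in a fit of only those groups; limma, 5 at an unadjusted p under 0.05; Cd14 at 0.50, adjusted p = 0.0805). With DL1, 6 fell and 1 rose in control cells (P2rx7, named after its value was seen, 0.52 ± 0.11, adjusted p = 0.00426), and Fpr2, the formyl peptide receptor that also binds the human cathelicidin peptide (-1.87 ± 0.195, 2.65e-05), Cd14 (-1.27 ± 0.141, 3.98e-05) and Tlr4 (-1.34 ± 0.158, 6.54e-05) were among those that fell. In irradiated cells 6 fell and 0 rose. Of 5 measured neutrophil surface genes 0 rose or fell after irradiation in either culture, 3 of them at an unadjusted p under 0.05 in each (limma; Cxcr2 at -0.24, adjusted p = 0.0596, without DL1; up to 2 rose and 1 fell when 1 library was left out), while 3 fell and 1 rose with DL1 in control and 4 fell and 1 rose in irradiated cells. Over all 12025 cultured rows, limma gave an unadjusted p under 0.05 for 5007 after irradiation without DL1 and 2233 with DL1. In fresh cells 0 genes of these 5 lists were called after irradiation by limma. At an unadjusted p under 0.05 stood 3 azurophil genes, 3 receptors, 1 regulator, 1 other neutrophil gene and 0 surface genes, and 886 of all 12903 rows.

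Markers of other cells moved in the same cultures. Of the listed markers, 8 of 9 for mast cells, basophils and eosinophils and 6 of 8 for LSK cells reached the mean of 1 FPKM. So did 3 of 7 for erythroid cells and megakaryocytes and 2 of 8 for lymphoid cells, and the rest were not tested. Of all 12025 rows, 1660 rose and 1908 fell after irradiation without DL1, and 301 rose and 77 fell after irradiation with DL1. Between cultures with and without DL1, 1675 rose and 1479 fell in control cells, and 2931 rose and 2043 fell in irradiated cells. Whether the marker counts differ from these shares was not tested. All 12 macrophage markers rose after irradiation without DL1 and 4 of 12 with DL1, and 11 of 12 fell with DL1 in control and all 12 in irradiated cells. The 4 became 0 to 2 without any 1 of the 6 libraries with DL1, and 10 of 10 tested in a fit of only those 6. Their summed level was 299.8 to 319 FPKM in irradiated cultures with DL1, 207 to 234 FPKM in control cultures with DL1, 1158 to 1846 FPKM in irradiated cultures and 497 to 779 FPKM in control cultures, and none was at 0 in a whole group. Monocyte markers summed to 576 to 721 FPKM in irradiated cultures with DL1, 412 to 502 FPKM in control cultures with DL1, 1229 to 1700.0 FPKM in irradiated cultures and 879.6 to 1019 FPKM in control cultures; 4 of 8 rose after irradiation without DL1, 3 of 8 with DL1, and 6 of 8 fell with DL1 in each. The 3 became 1 without control replicate 1 or 3 or irradiated replicate 1 or 2 with DL1, and 6 in a fit of only those groups. Mast cell, basophil and eosinophil markers rose after irradiation in 6 of 8 without and 1 of 8 with DL1, erythroid and megakaryocyte markers in 2 of 3 (1 fell) and 0 of 3, and lymphoid markers in 1 of 2 and 0 of 2. Of 6 measured LSK markers, 2 fell after irradiation without DL1 and 1 with DL1. With DL1, mast cell, basophil and eosinophil markers rose in 3 of 8 in control cells, and 2 rose and 3 fell in irradiated cells. Of the LSK markers 1 rose and 1 fell with DL1 in control cells, and 3 rose and 1 fell in irradiated cells. Erythroid and megakaryocyte markers fell with DL1 in 1 of 3 in control and 3 of 3 in irradiated cells, and of 2 lymphoid markers 1 rose in control cells and 1 rose and 1 fell in irradiated cells. The 1 mast cell, basophil and eosinophil call after irradiation with DL1 was lost without any 1 of the 6 libraries with DL1. The erythroid and megakaryocyte fall without DL1 was lost without any 1 library compared except irradiated replicate 3, and the lymphoid rise without control replicate 1 or 2 or irradiated replicate 1. The part of these cells in the levels of the 10 genes was not tested.

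Across the 12 cultured libraries, the rows whose log2(FPKM + 1) followed the mean z-score of the 10 genes most closely were Gpx3 (Pearson r = 0.989), a secreted glutathione peroxidase, Ly6c2 (0.988), a surface antigen of monocytes, Acpp (0.988), KLRAQ1 (0.988), FAM160A2 (0.988), Hsd17b11 (0.987), Naip2 (0.986), Cd97 (0.986), Trem3 (0.985) and complement C3 (0.985). Ly6c2 averaged 129 FPKM in irradiated cultures with DL1, 59.0 FPKM in control cultures with DL1, 341 FPKM in irradiated cultures and 158 FPKM in control cultures. C3 averaged 30.9 FPKM in irradiated cultures with DL1, 14.9 FPKM in control cultures with DL1, 78.2 FPKM in irradiated cultures and 44.4 FPKM in control cultures. The coefficients describe 12 libraries in 4 groups and share the differences between the groups.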

How the data were processed

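The authors deposited 2 tables of FPKM values, 1 with the 6 fresh and 1 with the 12 cultured libraries, of 25629 rows each. Per the submitters' processing notes, reads went through TopHat (version 1.4.1), Cufflinks (version 1.3.0) and Cuffdiff, and the build named is the human hg19, although the samples are from mice; the annotation is not given in the sources used here. Per the labels' protocols, the miRNeasy kit gave total RNA and the TruSeq RNA kit the libraries. Titles placed the samples in groups, since the source field names irradiated cells for controls too. In 1 cultured column the replicate number stands ahead of the DL1; it was matched to the first irradiated sample with DL1, which no other column fits.

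FPKM are not counts, so log2(FPKM + 1) was tested with limma 3.58.1 in R 4.3.3 (trend over the mean, two-sided, Benjamini-Hochberg over all rows with a mean FPKM of at least 1: 12903 fresh, 12025 cultured; threshold 0.05), each table alone and the 12 cultured libraries in 1 fit. The added 1 understates folds of low genes. The fit was tested on simulated data. The 10 genes and all lists were chosen with earlier results of these data known. The text names all 10 genes, and from each other list at most the 4 genes with the smallest p among those that passed, or 2 where none passed; exceptions are stated. Rows most like the 10 genes were ranked by Pearson correlation. The lists were other neutrophil granule and cystatin genes, azurophil genes, regulators, receptors, neutrophil surface genes, and markers of macrophages, monocytes, mast cells with basophils and eosinophils, erythroid cells with megakaryocytes, lymphoid cells and LSK cells. Alternatives were other pseudocounts, filters and scaling, a replicate block, fits of only the groups compared, and leaving out each replicate. Relative depth came from the spacing of the lowest values, matched within 0.001. Same-numbered irradiated cultures with and without DL1 deviated together (correlations of deviations from the group means 0.23, 0.145 and 0.348), so a fit of those 6 libraries with the replicate number as a block was added after the data were seen; the labels do not say that the numbers mark a shared mouse, and in no other pair of cultured groups did all 3 pairs exceed 0.1. The p-values set the difference between group means against the spread between libraries within groups. That spread was pooled over all groups of a table and moderated towards a trend over all rows. A cultured library stands for 1 mouse and a fresh one for a pool of 3 mice.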

Additional observations from a re-analysis of the deposited data

How the results depend on the processing

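The number of the 10 genes called stayed within 1.5 times the reported value under every alternative run except 1: with DL1, 4 rather than 7 rose after irradiation without irradiated replicate 2 with DL1. Leaving out 1 replicate at a time gave 0 called in fresh cells, 7 to 9 after irradiation without DL1, 4 to 7 with DL1, 7 for DL1 in control cells, 8 to 10 in irradiated cells, 5 to 7 between irradiated cultures with DL1 and control cultures, and 0 for the difference between the irradiation changes. With Ltf and Camp not tested, under a filter at a mean of 5 FPKM, 5 fell with DL1 in control cells. Uncalled values that changed sign were the difference between the irradiation changes of Ltf (-0.22 with a pseudocount of 5, -0.0059 with median-ratio scaling) and, without 1 replicate each, values within these ranges: in fresh cells -0.51 to 0.054 for Ltf, -0.53 to 0.0721 for Ngp, -0.51 to 0.13 for Camp, -0.14 to 0.0803 for Pglyrp1, -0.10 to 0.38 for Fcnb and -0.0187 to 0.33 for the monocyte marker Ms4a6c; after irradiation without DL1 -0.11 to 0.16 for Mmp8, -0.0686 to 0.18 for Stfa1 and -0.0332 to 0.13 for BC100530; and for the difference between the irradiation changes -0.23 to 0.25 for Ltf, -0.50 to 0.0502 for Camp and -0.48 to 0.17 for Fcnb. The labels do not say whether the replicate numbers pair the libraries. Outside the irradiated cultures with and without DL1 they were not taken as pairs: deviations of same-numbered libraries correlated between -0.168 and 0.348 over 18 cultured pairs (6 over 0.1) and between 0.0572 and 0.211 over 3 fresh pairs, and 6 of 12 cultured and 5 of 6 fresh libraries correlated best with their own number. With the replicate block 0, 8, 6, 8, 9, 7 and 0 of the 10 were called in the 7 comparisons in the order reported, Chil3 with DL1 being lost (adjusted p = 0.0547) and S100a8 gained for DL1 in control cells (0.0453). Counts over all rows moved by more than 1.5 times in fresh cells (13; 4 with no filter on low rows, 5 without irradiated replicate 1), after irradiation without DL1 (3568; 1657 in a fit of only these groups, 1876 without control replicate 2, 2180.0 without irradiated replicate 1) and with DL1 (378; 222 with no filter, 997 in a fit of only these groups, 105 to 285 without 1 replicate), between irradiated cultures with DL1 and control cultures (2489; 1642 without control replicate 1), and for the difference between the irradiation changes (9; 3 with no filter or with the block, 5 with a filter at 5 FPKM, 18 with a pseudocount of 5, 0 to 189 without 1 replicate). Median-ratio scaling changed the split of higher against lower calls to 2004 and 1480 (1660 and 1908 without it) after irradiation without DL1, 1255 and 1716 (1675 and 1479) for DL1 in control cells and 2026 and 2460 (2931 and 2043) in irradiated cells. The low level of Ltf and Camp in culture, the library at 0.488 of the depth and 3 libraries a group limit the precision; the causes of these changes were not tested.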
